A study of Mus musculus with 8 samples.

Results

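Mouse embryonic fibroblasts (MEFs) carried 407 constitutive m6A regions in which enrichment was lower after nutrient starvation, of 2257 constitutive regions and 21168 merged regions in all. A region was a union of m6A peaks that shared at least 1 bp across the 4 peak lists of the series, 2 from control cells and 2 from starved cells, and it was called constitutive when each of the 4 lists held a peak in it. Members were chosen by the deposited fold enrichment itself: in each list the highest fold enrichment in the region was taken, and a region was kept when both starved values lay below both control values. Enrichment values of the members are therefore a description and carry no test. The 407 regions bore 393 different gene labels.

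N6-methyladenosine (m6A) is a methyl mark on adenosines of mRNA. A writer complex around METTL3 and METTL14 places it, mostly within a GGAC-like sequence, the erasers FTO and ALKBH5 remove it, and YTH domain proteins bind it and affect splicing, export, translation and decay. The mark is known for gathering near stop codons and in long internal exons.

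MEFs are primary cells cultured from mouse embryos. All cells here were wild type C57BL/6 fibroblasts made from embryos of day 13.5 and used at passages 5 to 6. Control cells stayed in full medium, and starved cells spent 2 h in nutrient-deprived medium, a buffered salt solution per the study's methods. The study asked which mRNAs change in m6A when nutrients are withdrawn. Each group had 2 replicates, each with an immunoprecipitated (IP) library, made with an antibody against m6A, and an input library, 8 samples in all. Values were given for each IP library, with its input used by the authors as the background of the peaks. Nothing in the labels says how far the 2 replicates of a group are independent cultures, and with 2 against 2 no permutation test over libraries could reach 0.05. MEF preparations are mixtures of embryonic cells. Of 12 fibroblast marker genes, 7 or 8 had a peak in each list, against 0 to 2 of 8 epithelial, 1 or 2 of 6 endothelial, 0 or 1 of 7 blood cell, 3 of 8 neural and 1 to 3 of 7 muscle and cartilage markers. The 4 constitutive regions of fibroblast markers and the 2 of neural markers held no member, and the other marker lists had no constitutive region. In these bulk libraries fewer cells with a transcript, less of that RNA per cell and less m6A on it cannot be told apart, since RNA levels were not analysed here.

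Stretches of coding sequence at the members with the widest gaps between groups and the strongest control peaks are shown first, because presence of the GGAC core is compared below. The first 8 are the 121 coding bases at the region centre, and the last 2 are the 120 coding bases of the exon that the Fto region and the Ythdc1 region at the gene's end overlap. Sequences are the transcribed strand of the mm10 genome, written 5′ to 3′, and capitals mark GGAC.
Cdk12, chr11:98210582-98210702, plus strand, exon 2 of 14: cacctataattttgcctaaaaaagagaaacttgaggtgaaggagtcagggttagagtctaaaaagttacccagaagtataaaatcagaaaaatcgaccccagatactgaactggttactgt
Pcm1, chr8:41259127-41259247, plus strand, exon 4 of 39: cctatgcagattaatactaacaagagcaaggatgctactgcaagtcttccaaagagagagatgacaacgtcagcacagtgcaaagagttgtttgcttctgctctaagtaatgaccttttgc
Gm10094, chr8:95825643-95825763, plus strand, exon 1 of 1: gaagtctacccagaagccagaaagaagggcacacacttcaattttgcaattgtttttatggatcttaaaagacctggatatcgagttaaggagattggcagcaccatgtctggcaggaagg
Rnf103, chr6:71509255-71509375, plus strand, exon 4 of 4: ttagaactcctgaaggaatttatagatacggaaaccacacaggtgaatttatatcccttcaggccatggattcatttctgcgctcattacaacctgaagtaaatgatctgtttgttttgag
Nexn, chr3:152242709-152242829, minus strand, exon 10 of 13: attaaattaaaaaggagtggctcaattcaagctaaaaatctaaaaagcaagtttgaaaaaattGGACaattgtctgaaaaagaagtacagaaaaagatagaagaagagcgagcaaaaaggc
Mphosph8, chr14:56674245-56674365, plus strand, exon 3 of 14: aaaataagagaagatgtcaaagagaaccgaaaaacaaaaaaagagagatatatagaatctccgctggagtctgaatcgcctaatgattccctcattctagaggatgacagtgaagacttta
Ccdc88a, chr11:29463594-29463714, plus strand, exon 15 of 32: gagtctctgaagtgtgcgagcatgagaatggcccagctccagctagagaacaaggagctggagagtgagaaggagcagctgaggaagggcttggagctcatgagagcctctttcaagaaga
Dhx8, chr11:101738285-101738405, plus strand, exon 6 of 23: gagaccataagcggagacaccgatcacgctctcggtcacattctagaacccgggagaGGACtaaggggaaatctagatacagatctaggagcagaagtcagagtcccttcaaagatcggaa
Fto, chr8:91485159-91485278, plus strand, exon 7 of 9: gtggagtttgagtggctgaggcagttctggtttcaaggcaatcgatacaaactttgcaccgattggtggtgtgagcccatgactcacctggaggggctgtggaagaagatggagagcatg
Ythdc1, chr5:86835789-86835908, plus strand, exon 17 of 17: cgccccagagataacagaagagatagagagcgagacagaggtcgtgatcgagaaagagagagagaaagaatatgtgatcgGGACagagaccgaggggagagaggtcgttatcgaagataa
The motif was present in 2 of the first 8 stretches, Nexn and Dhx8, and in 3 of the 10 when Ythdc1 is counted. Stretches of the same length held it in 46.4% of the 194 members in coding sequence that had all 121 coding bases and in 49.3% of 1147 such constitutive regions (48.7% of 7782 merged regions). The 8 were picked by gap and control value and are few, and whether they differ from the other members was not tested. The stretches of Cdk12, Pcm1, Gm10094, Mphosph8 and Ccdc88a had no GGAC in the 200 nt of spliced transcript at their centre either, and Rnf103 had it only outside the printed bases.

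Across the members the median fold enrichment was 39.8 in control replicate 1 and 36.7 in control replicate 2, and 15.6 and 14.1 after starvation. The median member was thus 2.21 times lower after starvation by the mean of its log2 values, a log2 difference (starved minus control) of −1.14, with quartiles of −1.59 and −0.80. Over all 2257 constitutive regions the median log2 difference was 0.10. The members made up 18% of the constitutive regions, fewer than the 516 regions (22.9%) in which both starved values lay above both control values, and in the other 1334 regions the groups overlapped. With 2 values against 2, random order of the values alone would put a share close to the members' 18% into each class. No test compared the counts of lower and higher regions with what random order would give. The shares of lower and higher regions depended on scale and on the filter on peaks. The starved lists had higher medians over constitutive regions (20.3 and 20.1) than the control lists (18.3 and 16.6), a log2 shift of 0.21. With each list divided by its median the split was 529 lower against 409 higher regions. All 407 members were among the 529 by construction, since dividing by the higher starved medians lowers starved values relative to control values. On that scale the members' median log2 difference was −1.36.

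**Figure D1:**
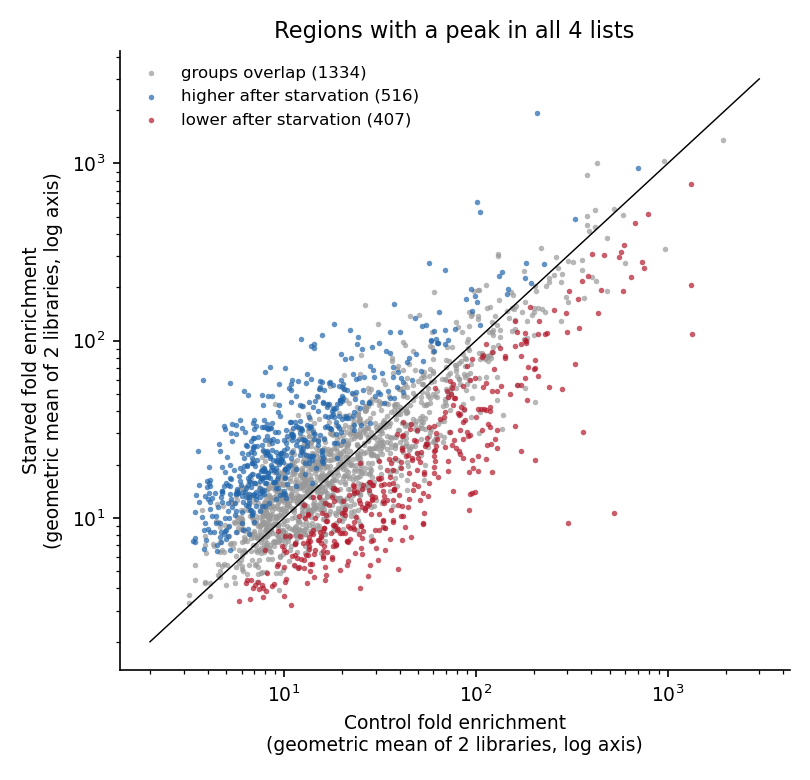
Each point is a region with a peak in all 4 lists, at the geometric mean of its 2 control fold enrichments (x axis, log) and of its 2 starved ones (y axis, log); the line marks equal values. The 407 members (red) lie below the line by the rule that chose them and reach from weak to very strong peaks, the 516 regions with higher values are blue, and the 1334 regions whose groups overlap are grey.

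Most members were separated by a narrow margin. The gap, the lower control value divided by the higher starved value, had a median of 1.40 and ran from 1.01 to 28.2. It was at least 2 in 81 members and at least 4 in 12. The 2 control values of a member differed by a median of 0.49 on the log2 scale and the 2 starved values by 0.53. The median gap, 0.49 on that scale, was about as wide as this spread within members. The rule favours regions with close replicates. Over all constitutive regions the medians of these replicate differences were 0.70 in control and 0.84 in starved cells, wider than the median gap. The gap was wider than both of the region's own replicate differences in 136 of the 407 members. Lower regions took a larger share of strong regions, counted on the same values that the rule used. Over all constitutive regions the median log2 difference also shifted with level. It was 0.21 and 0.27 in the 2 weaker bins given next, and −0.24 and −0.31 in the 2 stronger ones. By the geometric mean of all 4 libraries, members were 62 of 448 regions (13.8%) under 10-fold, 170 of 1149 (14.8%) from 10 to 30, 122 of 498 (24.5%) from 30 to 100 and 53 of 162 (32.7%) from 100 upwards, while regions with higher values were 24.8%, 25.7%, 17.9% and 13.0% of the same bins.

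The widest gaps were found at Gm6430 and Lrrc58. Gm6430 (chr1:97024681-97025928), annotated as a processed pseudogene inside a long noncoding RNA, had control fold enrichments of 425 and 645 and starved ones of 15.1 and 7.54. The genome holds 5 further copies of the 200 bp at its centre, alike over at least 90% of their length at 95% identity or more, so the reads behind this region may be shared. Lrrc58 (chr16:37881254-37884803), a leucine-rich repeat gene without such a copy, had 318 and 290 in control and 8.23 and 10.6 in starved cells, with its centre in the 3′ UTR of its last exon. Its peaks differed in extent, at 3360 and 1806 bp in control and 3550 and 1044 bp in starved cells. The centres of these peaks had an SD of 694 bp, so the values do not come from the same stretch. At both genes the control values stood at least 27.3 times above the starved ones.

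Fto, the m6A eraser, followed at a gap of 7.18. Its region (chr8:91485159-91485439) had 178 and 234 in control and 24.8 and 18.4 in starved cells. It begins with an internal coding exon, exon 7 of 9, and its centre lies in the intron after that exon, where a shorter Fto transcript ends, so its place at a stop codon holds for that transcript alone. Fto was the member with the widest gap among the m6A machinery.

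The other members with wide gaps were of mixed function. Nuf2, a kinetochore protein of the Ndc80 complex, had 556 and 237 in control and 23.0 and 40.7 in starved cells at the end of a shorter transcript (chr1:169510260-169510537). Zfp608, a zinc finger gene, had 155 and 192 against 21.6 and 26.4 in its coding sequence (chr18:54895227-54895637). Its bases are not printed here, and GGAC occurred 2 times in the 200 nt at its centre. Cdk12, a kinase of the RNA polymerase II tail, had 54.0 and 51.7 in control and 10.1 and 8.60 in starved cells in exon 2 of 14 (chr11:98210361-98211232). The replicates of Cdk12 lay close together, and the gap was 5.14. Med6, a Mediator subunit, had 126 and 100.6 against 21.3 and 21.8 at its stop codon (chr12:81573685-81573960). Pcm1, a centriolar satellite scaffold, had 140 and 61.0 against 13.6 and 9.14 in exon 4 of 39 (chr8:41259067-41259306). The control replicates of Pcm1 differed more than those of Med6, yet neither overlapped a starved value. Fam192a had 25.3 and 29.6 against 5.44 and 4.06 at its stop codon (chr8:94575312-94575857), the weakest control peak of this group. Rnf103, a ubiquitin ligase of the endoplasmic reticulum, had 367 and 295 against 73.3 and 73.7 in its last coding exon (chr6:71508772-71510436). Gm10094, which the annotation calls Sap18b, a single-exon relative of the Sin3 complex gene Sap18, had 163 and 158 against 35.3 and 31.3 (chr8:95825411-95826133), and 1 near-identical copy stands elsewhere in the genome. Of the 12 members with the widest gaps, 4 lay at a stop codon, 5 in coding sequence, 1 in a 3′ UTR and 2 in pseudogenes, Gm6430 and Gm9845.

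By the lower of the 2 control values, the strongest members were a further pair of pseudogenes and 4 protein-coding genes. Gm9845, a processed pseudogene, had 1685 and 1050 in control and 248 and 48.0 in starved cells (chr3:39358212-39359071), also one of the 12 widest gaps. AA414768, another processed pseudogene, had 1205 and 1457 against 986 and 590 (chrX:12937354-12937957). Nexn, an actin-binding protein of muscle and fibroblasts, had 1596 and 1085 against 403 and 106 (chr3:152242659-152242880). The starved replicates of Nexn and Gm9845 lay far apart, while their control values were all above 1000. Mphosph8, a reader of methylated histone H3, had 754 and 753 against 311 and 214 (chr14:56673891-56674775). Ccdc88a, the actin-binding protein girdin, had 709 and 585 against 315 and 165 (chr11:29463120-29464190). Dhx8, a splicing helicase, had 970 and 645 against 419 and 640 (chr11:101738130-101738561) and was a member by the narrowest margin of the whole set.

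**Figure D2:**
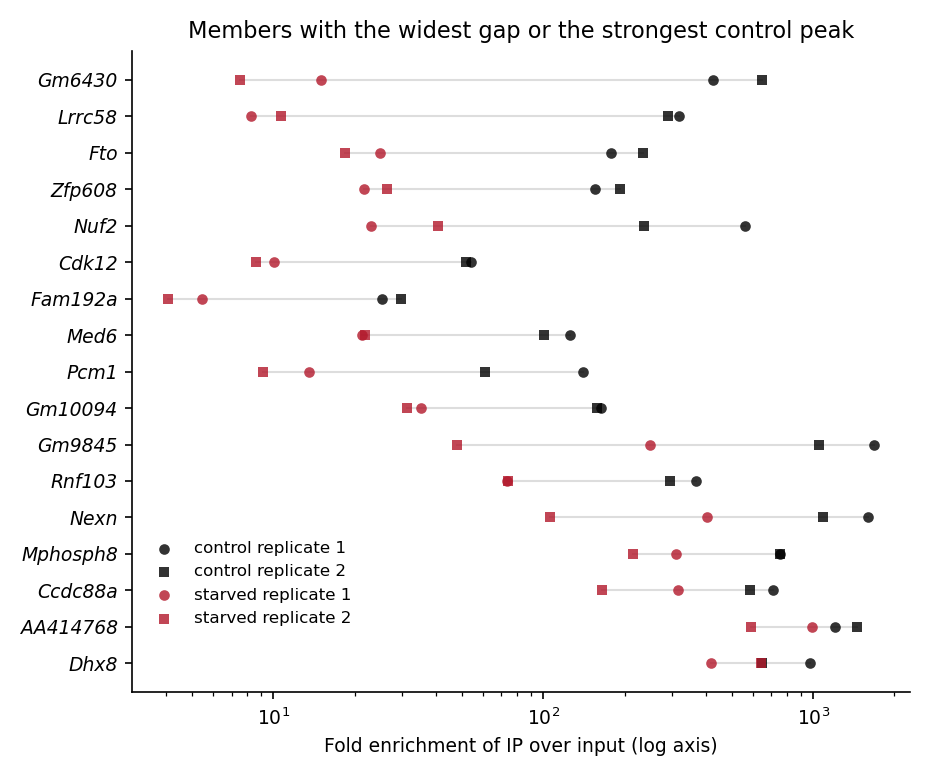
Fold enrichment of IP over input (log axis) in each of the 4 libraries for the 12 members with the widest gap and the 6 with the strongest control peak (17 regions, since Gm9845 is in both); circles are replicate 1, squares replicate 2, black control and red starved. Gm6430 and Lrrc58 show the widest separation, from at most 15.1 to at least 290, and at Dhx8 one starved value (640) nearly meets a control value (645).

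At the edge of the rule, the members just inside were Dhx8, Kitl and B230219D22Rik. Kitl had 15.8 and 22.7 in control and 15.6 and 13.1 in starved cells, and B230219D22Rik 16.6 and 13.8 against 12.7 and 13.7. Just outside were Plcd3 with 141 and 127 against 128 and 85.3, Cdkn2b with 19.8 and 26.3 against 14.8 and 19.9, and Zfp131 with 18.9 and 32.8 against 19.0 and 18.7. Regions on either side of the edge differed by less than 1% in the pair of values that decided the call.

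Genes of known function were read from 12 lists, which together held 302 constitutive regions and 50 of the members. The other 357 members were in none of them. Against the 18% of all constitutive regions, members took 5 of 20 regions (25%) of m6A writers, erasers and readers, with a median log2 difference of 0.22 over the list against 0.10 over all constitutive regions. Beside Fto, 2 regions of Ythdc1, the nuclear m6A reader, were members. The region at the end of Ythdc1 (chr5:86835684-86836288) had 451 and 411 in control and 142 and 144 in starved cells, and the region in exon 4 of 17 (chr5:86816907-86817333) had 73.6 and 78.5 against 59.8 and 31.1. The first was apart by 2.85 times with close replicates, the second by 1.23 times. Hnrnpc, an RNA-binding protein whose access to RNA is affected by m6A, had 15.6 and 18.1 against 8.50 and 4.81, with 2 near-identical copies of its sequence elsewhere. The region of 1110037F02Rik, the older name of the writer subunit Virma, had 48.1 and 19.8 against 16.2 and 17.5. Regions with higher values in both starved libraries numbered 4, so the list held both directions.

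Nutrient sensing genes had few constitutive regions. In the list of mTORC1, GATOR and AMPK genes 3 of 6 regions (50%) were members and 1 had higher values, with a list median of 0.20. Fnip1, a folliculin partner in amino acid sensing, had 31.6 and 26.8 in control and 16.7 and 3.40 in starved cells. Prkaa1, the catalytic alpha 1 subunit of AMPK, had 73.0 and 69.8 against 51.3 and 45.3 at its stop codon. Fnip2 had 62.4 and 59.96 against 54.3 and 53.6, a gap of 1.10. The log2 difference of Fnip2, −0.18, was smaller than those of Fnip1 (−1.95) and Prkaa1 (−0.57). Of 16 regions of autophagy genes 2 were members (12.5%) and 2 had higher values, with a median of −0.06. Gabarapl1, an ATG8 family protein of the autophagosome membrane, had 25.3 and 21.7 in control and 7.63 and 5.30 in starved cells in its 5′ UTR (chr6:129533192-129533536). Zfyve26, a lysosomal protein needed for autophagic lysosome reformation, had 24.9 and 81.3 against 22.2 and 14.4, with control replicates further apart than the groups. The study counts Zfyve26 and Fnip2 among genes with m6A peaks that rose after starvation and bound more of the reader YTHDF3. Whether those peaks overlap the regions here was not tested.

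Members were frequent among RNA helicases, splicing and RNA decay genes, at 8 of 18 regions (44.4%), with 2 regions higher and a median log2 difference of −0.18. Ddx17, an RNA helicase in splicing and microRNA processing, had 27.4 and 23.2 in control and 8.20 and 5.56 in starved cells. Srsf6, a splicing factor of the SR family, had 24.6 and 37.3 against 10.2 and 4.48 at its stop codon. Ddx6, a helicase of translational repression and decapping, had 66.9 and 57.5 against 34.6 and 26.6 in its 5′ UTR, with 1 near-identical copy elsewhere. The other 5 members were Srsf3, Sf3b1, Smg6, Smg1 and Prpf4b, with gaps of 1.17 to 1.54. With the lists scaled to the same median, which cannot remove a lower region, the count was again 8 lower and 2 higher. As the list is small and was written with earlier results known, the count is a description and no test was made of it.

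Cell cycle genes held 3 members among 11 regions and none with higher values, with a median of −0.41. Beside Cdk12 these were Ccnl2 and Plk2. Ccnl2, a cyclin that works with splicing factors, had 68.3 and 53.5 in control and 16.5 and 19.4 in starved cells at its stop codon. Plk2, a polo-like kinase, had 18.9 and 17.7 against 9.77 and 15.8 in its 3′ UTR, a gap of 1.12. Cdk12 and Ccnl2 are known for roles in transcription and RNA processing as well as by their cyclin and kinase names.

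Actin, tubulin and motor genes gave 11 members of 57 regions (19.3%) and 19 with higher values, and with scaled lists 14 against 13, so the direction of this list flipped with the scale. Macf1, a crosslinker of microtubules and actin, had 21.9 and 35.7 in control and 10.1 and 2.88 in starved cells. Myh10, a nonmuscle myosin heavy chain, had 30.2 and 45.3 against 17.9 and 5.25. Sptbn1, Sptan1, Dync1h1 and Flnc together held 8 further members.

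Matrix, integrin and matrix protease genes held 6 members and 10 regions with higher values among 33, and with scaled lists 11 against 5, another direction that flipped. Thbs2, a matricellular thrombospondin, had 16.8 and 15.2 in control and 10.0 and 3.72 in starved cells. Vcan, the proteoglycan versican, had 70.2 and 32.2 against 11.5 and 21.2. Thbs1, with 2 member regions, had 20.8 and 22.8 against 10.9 and 16.7 in exon 5 of 22. Mmp14 and Itga6 were the other genes with a member. Receptor signalling genes held 3 members of 32 (9.38%) against 11 with higher values. Ctnnb1, beta-catenin, had 13.1 and 14.3 in control and 4.26 and 7.0 in starved cells. Notch2 had 8.87 and 6.72 against 4.59 and 3.54. Fzd3, a Wnt receptor, had 534 and 617 against 271 and 370, one of the stronger peaks of the lists.

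Chromatin enzymes held 6 members of 69 regions (8.70%) and 18 with higher values, and 14 against 14 with scaled lists. Kmt2a, a histone H3 lysine 4 methyltransferase, had 28.9 and 16.9 in control and 6.26 and 12.2 in starved cells. Bptf, a remodeler subunit, had 35.9 and 74.0 against 28.0 and 19.7, and Chd1, a remodeler helicase, 57.8 and 118.6 against 46.4 and 21.4. Chd4, Asxl1 and Kdm4a made up the rest. Trafficking genes held 3 members of 16 and 3 higher regions, and 3 against 1 with scaled lists. Arf1, a GTPase of Golgi coats, had 32.4 and 24.8 against 11.2 and 9.96, with 2 near-identical copies elsewhere. Stam, an endosomal sorting adaptor, had 13.3 and 19.2 against 3.96 and 8.96, and Rab11fip5, a recycling endosome adaptor, 9.84 and 5.58 against 4.69 and 3.39. In the integrated stress response (9 regions) and in the immediate early, AP-1, Myc and Kruppel-like factors (16 regions) no region was a member, and 4 of each had higher values, with list medians of 0.53 and 0.41. With scaled lists the immediate early list held 2 lower and 3 higher regions.

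**Figure D3:**
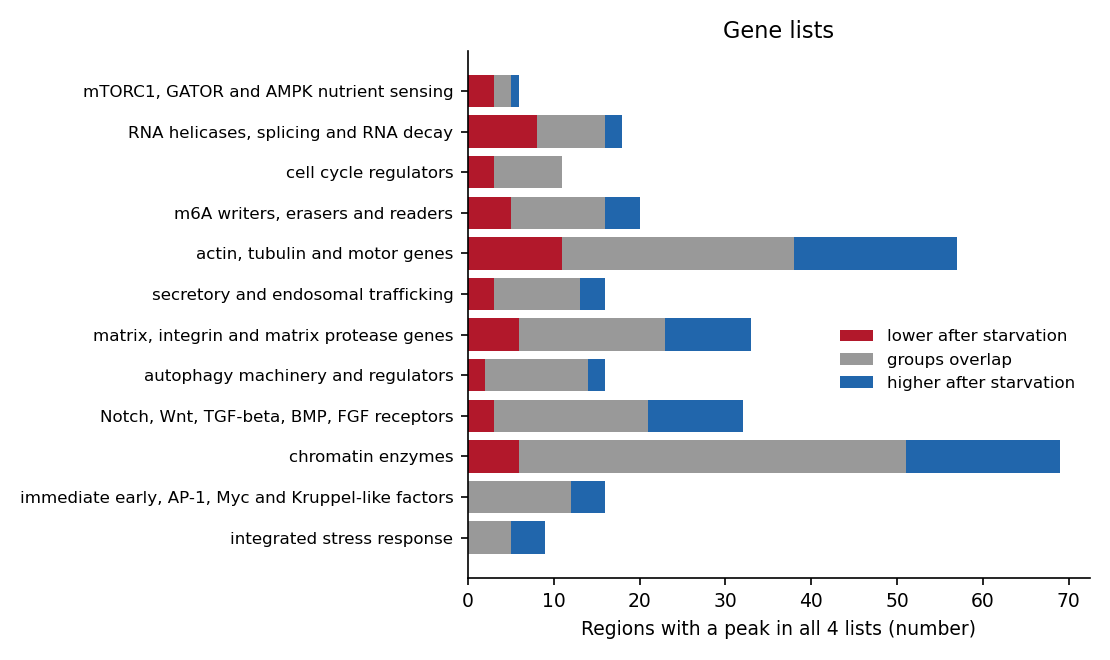
Number of constitutive regions per gene list (x axis), split into regions lower after starvation (red), with overlapping groups (grey) and higher after starvation (blue), on the deposited scale. RNA helicases, splicing and RNA decay genes show 8 red of 18, chromatin enzymes 6 of 69, and the integrated stress response and immediate early lists none.

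Members were mostly single regions of their genes. By the gene labels of the lists, 13 genes had at least 2 members, and Sptbn1, encoding beta-II spectrin, was the gene with 3. By the summed gap the first was D2hgdh, an enzyme of D-2-hydroxyglutarate breakdown, where one region gave 117 and 90.6 against 24.4 and 14.0 after starvation (chr1:93850802-93851173) and the other 164 and 95.9 against 37.9 and 20.5 (chr1:93916742-93917118). The second region carries the D2hgdh label, but its centre lies outside the annotated genes. The 200 bp at the centre of the first occur unchanged in the second, so reads of the 2 regions cannot be told apart and they do not count as separate observations. Ythdc1 came next. Zak, the older name of the stress kinase gene Map3k20, had 56.1 and 51.4 against 23.1 and 13.4 in its coding sequence and 13.4 and 16.9 against 10.0 and 5.58 in the 3′ UTR of a shorter transcript. Nab1, a corepressor of EGR factors, had 60.9 and 32.2 against 8.03 and 16.6 in its coding sequence and 22.4 and 14.2 against 3.84 and 9.37 in its 3′ UTR. The 3′ UTR region of Nab1 has 1 near-identical copy elsewhere. Wdr33, a subunit that recognises the polyadenylation signal, had 39.0 and 51.9 against 11.2 and 14.5 in its coding sequence, and its second region was a member by 1.05 times only, with 52.4 and 35.5 against 14.9 and 33.9.

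Other constitutive regions of the same genes were lower about as often as constitutive regions in general. In 92 genes a member stood beside another constitutive region, which gave 151 ordered pairs of a member and another region of its gene. The other region was lower in 30 pairs (19.9%), higher in 29 (19.2%) and without order in 92, with a median log2 difference of 0.02. Over all 862 such pairs of constitutive regions 17.5% of the other regions were lower and 22.0% higher, with a median of 0.11. For pairs whose first region was higher, the shares were 15.3% and 27.4%, with a median of 0.19. In the member genes 24 further constitutive regions had higher values in both starved libraries. They include regions of 1110037F02Rik, Kmt2a, Macf1, Ccdc88a and Sptbn1. Notch2, with the member in exon 25 of 34, had 18.01 and 12.5 in control and 22.0 and 30.6 in starved cells in its 3′ UTR, and Myh10 had 8.97 and 13.6 against 32.0 and 27.7 in another coding region. Srek1, a splicing regulator, had the widest gap of these, with 6.14 and 3.96 against 18.3 and 55.6 in its 3′ UTR.

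Position on the transcript and sequence were not used to choose the members and could be tested. Of the 407 members 390 could be placed in an exon of a coding transcript by their centre. Coding sequence held 204 of them (52.3%), the 3′ UTR 116 (29.7%), the window within 100 nt of the stop codon 57 (14.6%) and the 5′ UTR 13 (3.33%). Of the 17 others, 6 lay in processed pseudogenes, 7 in exons of protein-coding genes outside their coding transcripts, 2 in introns and 2 outside annotated genes. In the 1796 other placed constitutive regions the stop codon window held 10.5%, 4.15 points less than in the members (95% Newcombe interval 0.65 to 8.22, odds ratio 1.46). Two-sided Fisher's exact tests over regions gave p = 0.0213, and 0.0639 after Benjamini-Hochberg adjustment over 12 tests. Shares in coding sequence (difference −2.65 points, −8.11 to 2.78), in the 3′ UTR (−2.10 points, −6.95 to 3.06) and in the 5′ UTR (0.61 points, −1.02 to 2.98) had adjusted p of 0.455, 0.522 and 0.547 by the same tests. Against the 505 placed regions with higher values, the stop codon window differed by 4.32 points (−0.01 to 8.83, adjusted p = 0.152 by Fisher's exact test). Regions of the same gene share their transcript and are not replicates of the cells, so these p-values describe regions of these 4 libraries.

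The GGAC core stood at a smaller share of the members, a difference that did not pass after adjustment. In 200 nt of spliced transcript at the centre, 59.7% of the members (233 of 390, 95% Wilson interval 54.8 to 64.5) held GGAC on the transcribed strand, against 66.2% of the other constitutive regions, a difference of −6.46 points (−11.8 to −1.22, p = 0.0163 and adjusted p = 0.0639 by two-sided Fisher's exact test). GGACT, which contains GGAC, stood in 21.8% of the members and 27.8% of the others, −6.04 points (−10.4 to −1.24, p = 0.0139, adjusted p = 0.0639 by the same exact test). Over all 19720 merged regions that could be placed, 62.0% held GGAC and 25.7% GGACT. On the opposite strand, where GGAC reads as GTCC, the shares were 45.9% in members and 45.3% in the others. Against regions with higher values GGAC differed by −7.58 points (−13.9 to −1.24, p = 0.0205, adjusted p = 0.0639) and GGACT by −4.34 points (−9.87 to 1.34, adjusted p = 0.233), again by Fisher's exact test. None of the 12 Fisher's exact tests passed the adjusted threshold of 0.05, and 4 had an unadjusted p under it.

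**Figure D4:**
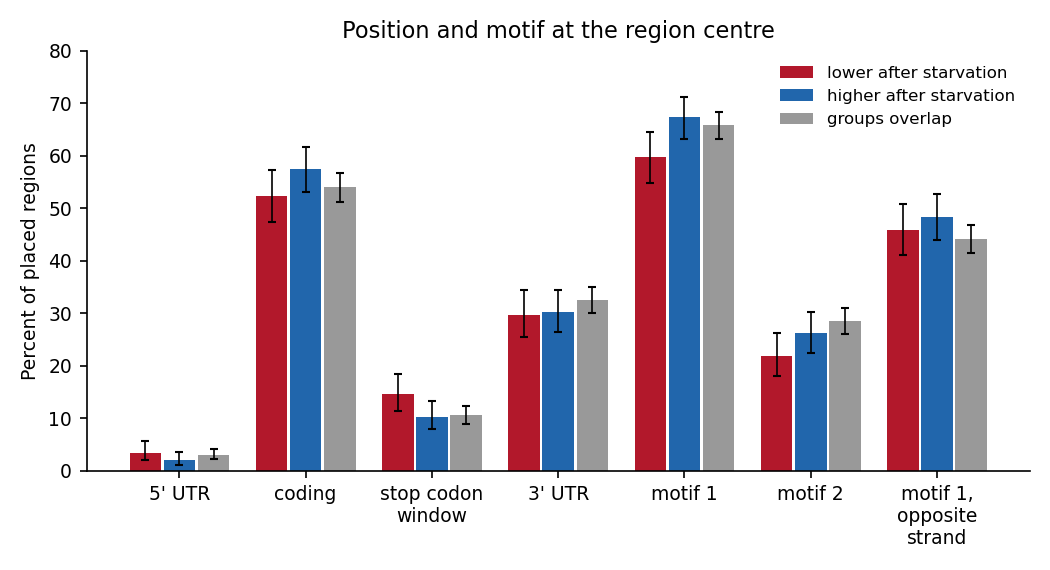
Share of placed regions (y axis, percent) by position of the centre and by motif in 200 nt at the centre, for members (red, 390), regions with higher values (blue, 505) and regions with overlapping groups (grey, 1291); motif 1 is GGAC, motif 2 is GGACT, and bars show 95% Wilson intervals. Members stand at 14.6% in the stop codon window against 10.3% and 10.5%, and at 59.7% for GGAC against 67.3% and 65.8%.

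Leaving out single libraries moved these differences in both directions. Against other constitutive regions GGAC ranged from −5.47 to −1.72 points and GGACT from −3.54 to −1.25, both nearer 0 than with all libraries, and the stop codon window from 1.25 to 4.46 points. The smallest differences came without control IP replicate 1 for GGACT and the window, and without starved IP replicate 1 for GGAC. Without starved IP replicate 1 the stop codon window passed Fisher's exact test (4.46 points against other constitutive regions, adjusted p = 0.00707, and 3.88 points against regions with higher values, adjusted p = 0.0422), and so did the 3′ UTR (−4.88 points, adjusted p = 0.0422). Without control IP replicate 2 GGAC passed against both (−5.47 points and −6.09 points, adjusted p = 0.0384 for each), and without starved IP replicate 2 it passed against regions with higher values (−7.14 points, adjusted p = 0.00862), all by Fisher's exact test. These sets are larger than the 407, from 782 to 985 regions. In regions whose lower control value was at least 1.5 times the higher starved value, 170 in number, GGACT was 12.5 points rarer than in other constitutive regions (difference −12.5, adjusted p = 0.00613 by Fisher's exact test). The other regions there include the members with smaller gaps. Each adjusted p covers the 12 tests of its own setting and not the number of settings tried.

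Around the centre GGAC varied little in the members. In 100 nt before and after the centre 37.4% and 37.6% of the members held GGAC, against 38.8% in the bin 150 nt upstream and 38.2% in the bin 150 nt downstream. In regions with higher values the shares in the same bins were 45.9% and 42.5%, against 41.8% upstream and 37.6% downstream. At 450 nt the shares were 38.8% upstream in both classes, and 29.8% in members and 34.1% in regions with higher values downstream. The intervals of members and of the other classes overlapped in every bin, and no test was made of this profile.

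**Figure D5:**
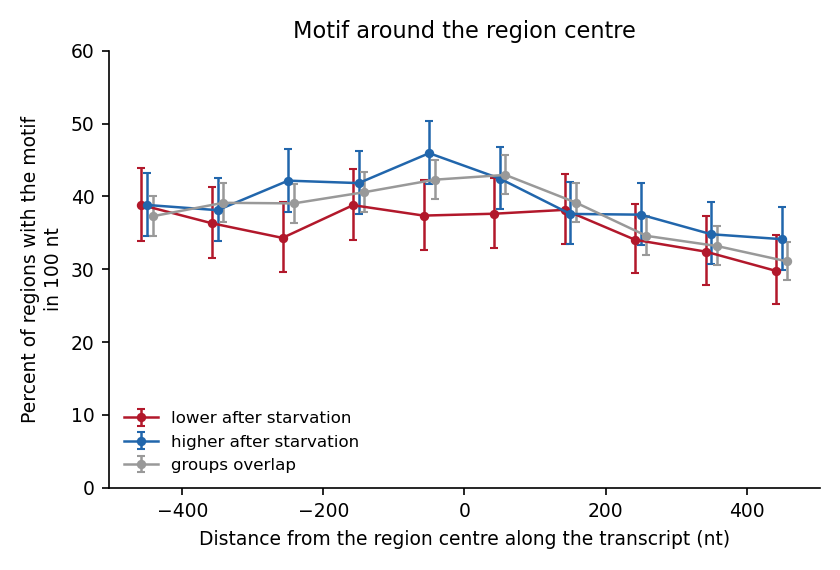
Share of regions with GGAC in 100 nt of spliced transcript (y axis, percent) by distance of the bin from the region centre (x axis, nt, negative towards the 5′ end), for members (red), regions with higher values (blue) and regions with overlapping groups (grey); bars are 95% Wilson intervals. Members stay between 34.0% and 38.8% from 450 nt upstream to 250 nt downstream, regions with higher values reach 45.9% just before the centre, and both are lower at 450 nt downstream (29.8% and 34.1%).

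Member regions were shorter by the median than those of the other classes. The median member region spanned 759 bp, against 1010 bp for regions with higher values and 883 bp for those with overlapping groups, and 332 members were built from exactly 4 peaks. The centres of the 4 peaks lay within an SD of 10 bp in 95 members (23.3%), against 12.8% of regions with higher values and 14.1% of those with overlapping groups. All peaks were at most 300 bp long in 58 members (14.3%), against 5.62% and 9.07%. Peak lengths come from the same peaks as the enrichment values, so these shares carry no test. At Nexn (222 bp), Dhx8 (432 bp) and Myh10 (213 bp), among others, all 4 peaks had the length of the exon and the same centre. Peak ends there may be exon ends and the region centre the middle of the exon. How far exon bounds set these lengths and centres was not tested. The exon at the centre had a median length of 1416 nt in members and 1724 nt in other constitutive regions, and the median GC content of the 200 nt was 48.0% and 50.5%. Near-identical copies elsewhere in the genome were found for 39 members (9.58%) and 7.73% of the others, and 10 members had the name of a predicted gene. Members were spread over all chromosomes with constitutive regions, at 11.5% (chromosome 7) to 25% (chromosome 13) of the constitutive regions of each. The part of GC content, exon length and copies in the differences of position and motif was not tested.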

How the data were processed

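MeRIP-seq of MEFs gave 8 samples in 4 groups (control or starved, IP or input) of 2 replicates, grouped by their titles. Per the study's methods and the submitters' processing notes, reads were trimmed (Cutadapt) and aligned by the authors to mm10 (HISAT2 2.0.4), and peaks were called in each IP library over its input (MACS2). The column names are those of an earlier MACS release, so the caller's version is uncertain. The deposited fold enrichment is the ratio of IP signal to the background of the input, the deposited score is −10 log10 of the peak's p-value, and the false discovery rate is given by the authors as a percent. The deposited differential table holds the authors' own fold changes and p-values and was not used. Per-sample columns that could not be mapped numbered 0. The peak lists hold no read counts, so depth is unknown, no counting error of a peak could be computed, and a ratio over a shallow input is less certain.

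Peaks sharing 1 bp were merged, starts were counted from 1, and no scaling between lists was applied. Centres (the mean of the 4 highest peaks' centres) were placed on GENCODE M21 transcripts on GRCm38, the assembly of mm10, taking the named gene first, then the longest coding sequence with the centre in an exon. The window at the stop codon reached 100 nt either way, and motifs were searched in 200 nt. Copies were searched with blastn 2.17.0. Two-sided Fisher's exact tests were adjusted by Benjamini-Hochberg over 12 tests, with Newcombe intervals for differences and Wilson intervals for shares (95%, counting of regions only). Python 3.11.15, pandas 2.3.3, scipy 1.17.1 and statsmodels 0.14.6 were used, and 14 of 14 quantities were recovered on simulated data.

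The members and the gene lists were chosen with earlier results of these data known. Members were named as the 12 widest gaps, the 6 strongest in control, up to 3 per gene list, 3 on either side of the edge of the rule, and up to 5 genes with several members. A member of the actin list that the rule named is not reported here. Srek1, genes named beside their values in the lists, and the sequences of Fto and Ythdc1 were added after their values were seen. Alternatives covered merging, the value per region, scaling, peak filters, the gap, single libraries, replicate pairs, the window, the centre and RefSeq GRCm38.p6 transcripts.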

Additional observations from a re-analysis of the deposited data

How the results depend on the processing

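All 407 members were kept with the best-scoring peak per region, and 389 with mean folds. Scaled lists kept all 407 by construction, since both starved lists had higher medians than both control lists. A rule on 3 libraries or on same-numbered pairs keeps all members by construction. The number of lower regions was 225 with a false discovery rate under 20% (of 997 constitutive regions), 170 with a gap of at least 1.5 times and 782 to 985 when one library was left out. With the false discovery rate under 20% there were 201 higher regions, so lower regions were then the more numerous. Fewer regions remain under the first 2 settings by construction, and a rule on 3 libraries admits more. Under the others it was 368 to 567.

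Replicate differences in control and starved lists correlated at −0.02 over constitutive regions, so no effect shared by same-numbered samples was visible in these values. Whether same-numbered samples were made together is unknown, and this correlation cannot decide it. Under the replicate block, starved below control within each same-numbered pair, 567 regions were lower and 699 higher, and no test changed its call.

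Of 216 recomputed comparisons of position and motif over 18 settings, 201 kept their direction and side of the threshold. Part of these only repeat the main values. The motif window cannot alter a position difference, and the best-scoring peak gave the same value in every comparison. Differences (in points) passed with adjusted p under 0.05 for GGACT against other regions with a score of at least 100 (−7.72) and a gap of at least 1.5 times (−12.5). The adjustment was made within each setting and not across settings. When one library was left out, ranges against other regions were −5.47 to −1.72 for GGAC, −3.54 to −1.25 for GGACT, 1.25 to 4.46 for the stop codon window, −4.88 to −0.65 for the 3′ UTR and −1.65 to 0.43 for coding sequence, and against higher regions −7.14 to −3.04 for GGAC, 1.08 to 3.88 for the stop codon window and −1.72 to 0.12 for coding sequence. Signs reversed for the 3′ UTR against higher regions with equal numbers of peaks (0.0824), with the centre of the merged region (1.30) and, in an alternative chosen after seeing the data, on longest transcripts only (0.32), for the 3′ UTR against other regions with the merged centre (0.0669) and for the 5′ UTR with a score of at least 100 (−0.068). On longest transcripts only, the stop codon window differed by 3.02 points. The cause of these changes was not tested. Unknown depth limits every fold enrichment.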
